A study of Homo sapiens with 12 samples.

Results

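The genes described here encode the subunits, activators, inhibitor and assembly chaperones of the proteasome, measured by RNA-seq of polyadenylated RNA in LX2, a line of immortalized stellate cells from human liver. They were chosen by name: every protein-coding gene whose symbol is PSM followed by A to G and a number, without the inducible subunits PSMB8 and PSMB9, which gave 46 of the 60612 genes in the deposited table. The 12 libraries fall into 3 groups of 4, all labelled wild type. STINGX-TGFb cells were pretreated with 10 µM STINGX, a code-named compound, for 3 h and were then given TGFb. TGFb cells received 5 ng/ml TGFb, a cytokine that activates stellate cells, with no pretreatment. Control cells received neither agent. The treatment protocol puts serum starvation for 16 h, begun 24 h after seeding, ahead of stimulation, and the libraries are labelled 16 h. Cells given STINGX alone were not analysed here, so the comparisons show STINGX only in the presence of TGFb, and the labels do not say whether the control and TGFb cells received a vehicle. The series title names mitochondrial DNA and the STING pathway in stellate cell activation as the study's subject.

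The proteasome degrades proteins tagged with ubiquitin. Its core particle (20S) stacks rings of alpha and beta subunits, the beta subunits PSMB5, PSMB6 and PSMB7 carry the cutting sites, and the regulatory particle (19S) caps the core with an ATPase base that unfolds substrates and a lid that removes ubiquitin. In cells given interferon the cutting subunits can be exchanged for PSMB8, PSMB9 and PSMB10 (the immunoproteasome), and the core can also be capped by the activators PSME1 with PSME2, PSME3 or PSME4. Transcription factor NFE2L1 is known to raise proteasome genes together when degradation is blocked, through antioxidant response elements in their promoters.

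Library totals were 58174812 to 70787741 estimated counts in STINGX-TGFb cells, 54035320 to 63193549 in TGFb cells and 64151449 to 66738764 in control cells. Levels of a gene across libraries are given in counts-per-million (CPM), scaled by the trimmed mean of M-values. The 46 genes took 0.610% ± 0.00514 of all counts in STINGX-TGFb cells, 0.591% ± 0.0190 in TGFb cells and 0.567% ± 0.0266 in control cells (SD, n = 4 each). Since no label ties a replicate to its own culture, p-values measure the spread between these libraries, which may be technical. In a bulk sample fewer cells with a transcript and less of it per cell cannot be told apart. All 8 stellate and mesenchymal markers were detected, and none of the 5 hepatocyte markers passed the filter on low counts, with ALB and TTR at 0 counts throughout. Summed over 6 macrophage and leukocyte markers, of which CD3E was at 0 and PTPRC reached at most 0.420 CPM, the level ran from 88.5 to 105 TPM in STINGX-TGFb cells, 32.6 to 37.9 TPM in TGFb cells and 77.7 to 83.9 TPM in control cells, most of it CD68. Summed over 5 cholangiocyte and epithelial markers, of which KRT7 and SOX9 passed the filter, it ran from 35.7 to 38.6 TPM in STINGX-TGFb cells, 75.9 to 92.4 TPM in TGFb cells and 42.3 to 55.6 TPM in control cells, and over 5 endothelial markers, most of it TIE1, from 29.8 to 37.9 TPM, 17.7 to 19.3 TPM and 22.1 to 27.0 TPM in these groups. The part of these markers in the results was not tested. Among the members the control libraries came in pairs. In 31 of 44 tested members control replicates 1 and 2 both lay above replicates 3 and 4, and in 2 members the reverse held. Counts of changed genes are therefore also given without either pair. Taken over the tested genes and not the members alone, chi-square per degree of freedom was 68.6 between control replicates 1 and 2 and 50.7 between 3 and 4. Across the pairs it ran from 69.97 (1 and 4) to 87.2 (2 and 3), so replicates 1 and 2 were only narrowly closer. How many of all genes show this order of the control libraries was not counted.

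Promoters are shown first because 3 of the 11 members that were lower in STINGX-TGFb than in TGFb cells hold the same letters in them. RefSeq promoter windows on GRCh38.p14 were found for 40 of the 46 genes by symbol, with 48 windows in all, and the 250 bases before the start were searched on both strands, here and in 35116 windows of all genes. Windows for PSMA7, PSMB1, PSMB6, PSMB7, PSMD4 and PSMG3 were not used here. The core of the interferon-stimulated response element, written here as TTTC, any 2 bases and TTTC, was found in 5 of 48 member windows (10.4%) and in 3.02% of all windows. Its carriers were PSMB10, PSME2 and PSMG4, and PSMA4 and PSMB4, which passed in no comparison. PSMA2, PSMA3, PSMB2, PSMC3, PSMD2, PSME1 and PSMG2, which were also lower with STINGX than with TGFb alone, did not hold it. This motif and the interferon-gamma site TTCNNNGAA were added after expression values had been seen. PSMB10, PSME2 and PSMG4 hold the same 10 letters, GAAAGCGAAA, which match the motif on the opposite strand, at 21, 28 and 33 bases before the start, and this 10-letter run occurs in 28 of all 35116 windows (0.0797%). The window of PSME1 has no such match and is shown beside that of PSME2, its partner in the activator. Capitals mark this core on either strand and, in PSME1 and PSME2, the antioxidant response element core TGACNNNGC.
PSMB10, chr16:67936851-67937100, minus strand: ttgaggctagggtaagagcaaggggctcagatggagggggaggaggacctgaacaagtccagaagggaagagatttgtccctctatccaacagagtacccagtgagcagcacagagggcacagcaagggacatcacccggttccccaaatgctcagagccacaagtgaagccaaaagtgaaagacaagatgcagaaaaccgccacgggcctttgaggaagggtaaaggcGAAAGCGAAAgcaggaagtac
PSME2, chr14:24146611-24146860, minus strand: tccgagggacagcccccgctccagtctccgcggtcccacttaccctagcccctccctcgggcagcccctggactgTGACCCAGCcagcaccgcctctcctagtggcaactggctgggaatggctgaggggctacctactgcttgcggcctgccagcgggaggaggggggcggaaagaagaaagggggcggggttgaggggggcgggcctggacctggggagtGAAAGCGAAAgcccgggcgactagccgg
PSMG4, chr6:3258697-3258946, plus strand: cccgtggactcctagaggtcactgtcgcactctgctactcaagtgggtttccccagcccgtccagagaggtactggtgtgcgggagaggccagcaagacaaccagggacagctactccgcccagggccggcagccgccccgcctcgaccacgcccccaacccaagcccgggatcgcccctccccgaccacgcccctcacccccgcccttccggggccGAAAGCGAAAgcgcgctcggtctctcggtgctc
PSME1, chr14:24135944-24136193, plus strand: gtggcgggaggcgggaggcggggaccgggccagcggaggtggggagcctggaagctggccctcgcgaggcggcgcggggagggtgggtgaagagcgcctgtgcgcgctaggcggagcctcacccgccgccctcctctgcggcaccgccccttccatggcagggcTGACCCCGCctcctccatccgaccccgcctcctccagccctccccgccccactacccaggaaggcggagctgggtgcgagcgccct

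The core TGACNNNGC of the antioxidant response element was present in 12 of 48 member windows (25%) and in 10.9% of all windows. The genes were PSMA4, PSMB3, PSMC5, PSMD3, PSMD5, PSMD9, PSMD12, PSME1, PSME2, PSME4, PSMG1 and PSMG2. CCAAT was found in 18 of the 48 windows (37.5%) and in 32.0% of all, and TTCNNNGAA in 6 (12.5%) and 6.57% of all. Stretches of 41 bases around the antioxidant response element core are printed for 4 genes that differed in direction, with the core in capitals and, in PSME4, on the opposite strand. PSMD12 and PSME4 were among the genes that rose with TGFb, PSMG2 fell with STINGX, and PSMB3 was lower in STINGX-TGFb cells than in control cells. PSMG2 has another window, chr18:12702792-12703041, that holds none of the 4 motifs. PSMD2, the called member with the largest change, holds none of them in either of its 2 windows.
PSMD12, chr17:67366718-67366758, minus strand: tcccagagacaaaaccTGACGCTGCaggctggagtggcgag
PSME4, chr2:53971003-53971043, minus strand: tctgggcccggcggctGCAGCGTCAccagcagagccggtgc
PSMG2, chr18:12658683-12658723, plus strand: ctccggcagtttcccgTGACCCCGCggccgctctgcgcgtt
PSMB3, chr17:38752621-38752661, plus strand: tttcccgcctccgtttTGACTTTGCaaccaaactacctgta

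To compare levels between genes, counts of transcripts were divided by annotated transcript length and expressed as transcripts-per-million (TPM). PSMA8, an alpha subunit of the testis, had 0 counts in every library, which allows up to 0.0114 CPM in STINGX-TGFb cells, 0.0128 CPM in TGFb cells and 0.0115 CPM in control cells (3 counts over each group, counting error only). PSMB11, the beta subunit of the thymus, had 4, 1 and 0 counts in STINGX-TGFb, TGFb and control cells. The other 44 members passed the filter on low counts and averaged between 12.6 and 913 CPM in every group. Alpha ring genes ranged 9.02-fold in mean TPM over the 12 libraries, with PSMA7 at the top (748 TPM) and PSMA5 at the bottom (82.9 TPM). Beta ring genes ran from PSMB7 (432 TPM) to PSMB10 (31.4 TPM), the lowest core gene by this measure among those that passed. The 6 ATPases spanned 2.90-fold between PSMC5 (228 TPM) and PSMC1 (78.4 TPM), and the 8 lid genes 3.45-fold between PSMD8 (258 TPM) and PSMD11 (74.9 TPM). PSME4, the nuclear activator also called PA200, was the lowest activator, with 38.0 ± 2.64 TPM in STINGX-TGFb cells, 36.4 ± 1.57 TPM in TGFb cells and 26.9 ± 1.68 TPM in control cells (SD, n = 4 each). The base assembly chaperones ran from PSMD9 (24.5 TPM) to PSMD10 (64.0 TPM), and the core assembly chaperones from PSMG4 (32.0 TPM) to PSMG2 (137 TPM), which lay above the lid median of 101 TPM. PSMA4 and PSME3 had wide spreads, with 100.1 ± 20.6 TPM in STINGX-TGFb cells, 98.8 ± 20.4 TPM in TGFb cells and 98.3 ± 46.8 TPM in control cells for PSMA4 and 209 ± 126 TPM in STINGX-TGFb cells, 154 ± 17.0 TPM in TGFb cells and 183 ± 102 TPM in control cells for PSME3, so their places in the order are not resolved.

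**Figure D1:**
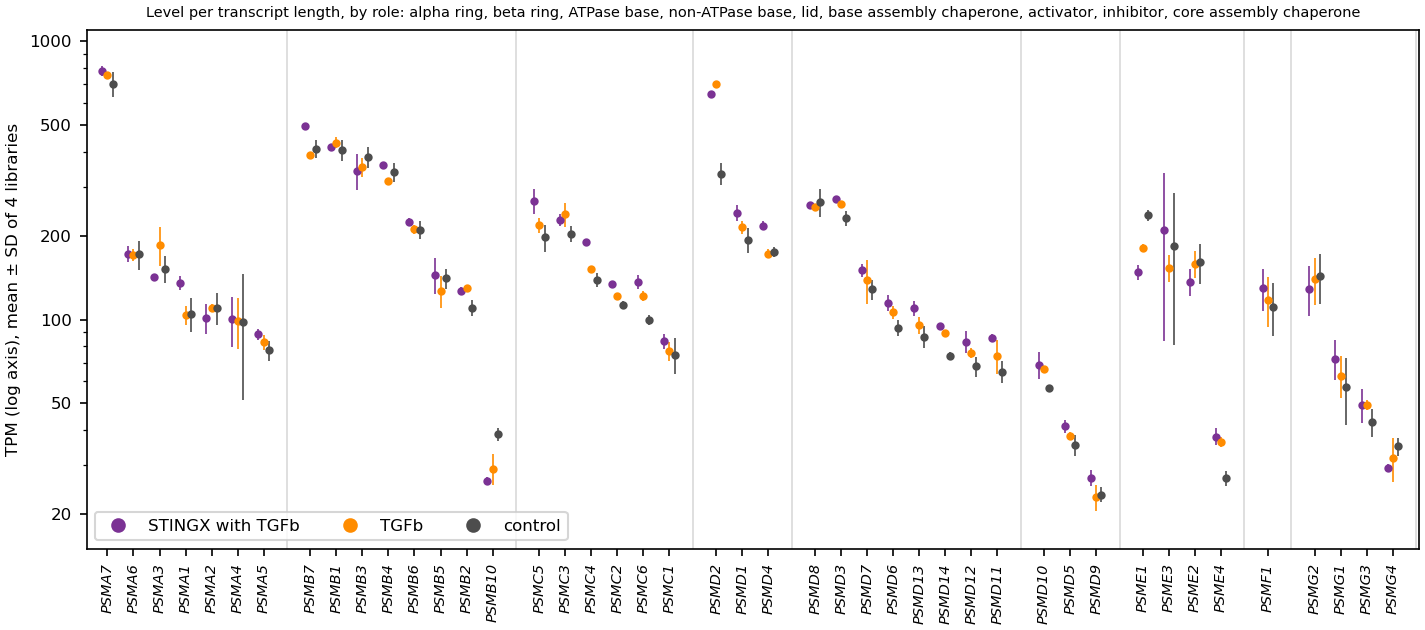
Level of each tested member in TPM (log axis), as the mean ± SD of 4 libraries, ordered within each role and coloured by group. PSMA7 stands highest, and PSMD9, PSMB10, PSMG4 and PSME4 are among the lowest.

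TGFb against control asks what TGFb did in these cells. In TGFb cells 9 members were higher and 2 were lower at an adjusted p under 0.05. PSMD2, a scaffold of the base that receives shuttled substrates, rose most (log2 fold change 0.84, SE 0.05, adjusted p = 5.89e-08), followed by PSME4 (0.41, SE 0.07, adjusted p = 6.67e-04). The 2 that fell were PSMB10 (-0.56, SE 0.09, adjusted p = 5.46e-04), the inducible counterpart of PSMB7, and PSME1 (-0.42, SE 0.06, adjusted p = 3.32e-04), a subunit of the interferon-inducible activator. Calls made up 25% of the 44 members, against a background of 26% of the 21328 genes tested, 13.2% higher and 12.8% lower. Among genes that averaged at least 10 CPM, as all 44 members did, 35.8% were called. The members' share was thus close to that of all genes and below that of genes at such levels. The groups did not overlap in 11 members (25%) and in 27.1% of all genes. The median log2 fold change was 0.06 over the members and 0.00 over all genes tested. Under library size alone 4 were higher and 5 lower, and PSMA3, PSMB2, PSMC6, PSMD10 and PSMD12 lost their calls there and on all FPKM scales. Leaving out control replicates 3 and 4 gave 3 higher and 8 lower, and leaving out control replicates 1 and 2 gave 13 higher and 2 lower. Without 1 library, PSMA3 lost its call in 10 of 12 cases, PSMD10 in 11 and PSMB2 in 5, at adjusted p up to 0.150, 0.125 and 0.0918, and the other 8 calls held.

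STINGX with TGFb against TGFb asks what the pretreatment changed. In STINGX-TGFb cells 11 members were lower and 3 were higher. The lower ones were led by PSMA3 (-0.50, SE 0.07, adjusted p = 1.37e-04), PSME2 (-0.44, SE 0.10, adjusted p = 0.00690), PSME1 (-0.42, SE 0.06, adjusted p = 2.85e-04), PSMG4 (-0.36, SE 0.06, adjusted p = 0.00101) and PSMD2 (-0.35, SE 0.05, adjusted p = 1.74e-04). PSMB7, PSMC4 and PSMD4 were the higher ones, by 0.19, 0.17 and 0.18 on the log2 scale. Calls made up 31.8% of the members, 25% lower and 6.82% higher, against a background of 27.5% of all genes, 13.8% lower and 13.7% higher. Among genes that averaged at least 10 CPM, 37.8% were called, 19.8% lower and 18% higher. Groups did not overlap in 19 members (43.2%), 16 of them with STINGX-TGFb cells below. Of all genes 31.6% did not overlap, 15.7% with STINGX-TGFb cells below and 15.9% with them above. The median was -0.06 over the members and 0.01 over all genes. Of the 14 calls, 7 held whichever library was left out (PSMA2, PSMA3, PSMD2, PSME1, PSME2, PSMG2 and PSMG4), and the number called fell to 7 without STINGX-TGFb replicate 1, 8 without STINGX-TGFb replicate 3 or TGFb replicate 1, and 9 without TGFb replicate 3 or 4. Under library size alone 13 were higher and 6 lower, a scaling that moved the median of all genes to 0.15, against -0.07 and 0.08 in TGFb against control and STINGX with TGFb against control. The members' median minus that of all genes was -0.07 under both scalings and 0.02 on log2(FPKM + 1). Under library size alone and on log2(FPKM + 1) the lower calls of PSMA2, PSMB1, PSMB2, PSMB10 and PSMC3 were lost, and with the size factors of DESeq2 the 3 higher calls were.

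STINGX with TGFb against control sets the doubly treated cells beside untreated ones. In STINGX-TGFb cells 8 members were higher, 7 of them regulatory particle genes, and 9 were lower. PSME1 and PSMB10 were lowest relative to control, at -0.84 (SE 0.06, adjusted p = 6.01e-07) and -0.84 (SE 0.09, adjusted p = 1.33e-05), and PSMD2 was highest, at 0.50 (SE 0.05, adjusted p = 6.64e-06). Calls made up 38.6% of the members against a background of 34.2% of all genes, 17.2% higher and 17% lower. Among genes that averaged at least 10 CPM, 47.8% were called. Groups did not overlap in 17 members (38.6%) and in 34.5% of all genes. The medians were 0.02 over the members and 0.00 over all genes. Under library size alone 16 were higher and 7 lower, without PSMA2 and PSMA6 among the lower, and under upper quartile scaling PSMC6, PSMD12 and PSMD14 lost their calls. Without control replicates 3 and 4 there were 3 higher and 17 lower, and without control replicates 1 and 2 there were 15 higher and 6 lower. Leaving out 1 library ended 4 of the 17 calls: PSMA2 (without STINGX-TGFb replicate 3), PSMA6 (control replicate 1 or STINGX-TGFb replicate 1, 2 or 3), PSMD12 (control replicate 4 or STINGX-TGFb replicate 1 or 3) and PSMD14 (control replicate 3 or 4 or STINGX-TGFb replicate 1, 2 or 4), at adjusted p up to 0.0557, 0.110, 0.0922 and 0.0873.

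Changes in this family were small. In none of the 3 comparisons did a member reach a 2-fold change with an adjusted p under 0.05, while 6.97%, 6.19% and 7.58% of all genes did in TGFb against control, STINGX with TGFb against TGFb, and STINGX with TGFb against control. The median size of a change, whatever its sign, was 0.11, 0.14 and 0.16 on the log2 scale over the members in these comparisons, against 0.19, 0.20 and 0.24 over the 10315 genes that averaged at least 10 CPM. Calls among those 10315 genes made up 35.8%, 37.8% and 47.8%, of which 19.9%, 18% and 25.2% were higher and 15.9%, 19.8% and 22.5% lower. In 21 members, PSMB4, PSMB5, PSMB6 and PSMF1 among them, no comparison passed. Leaving out 1 library brought a call in 1 or more comparisons for PSMA1, PSMA4, PSMB4, PSMC1, PSMD3, PSMD8, PSME3, PSMG1 and PSMG3 of these. The 3 comparisons share groups of libraries, so their values are set side by side and not counted as separate evidence.

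**Figure D2:**
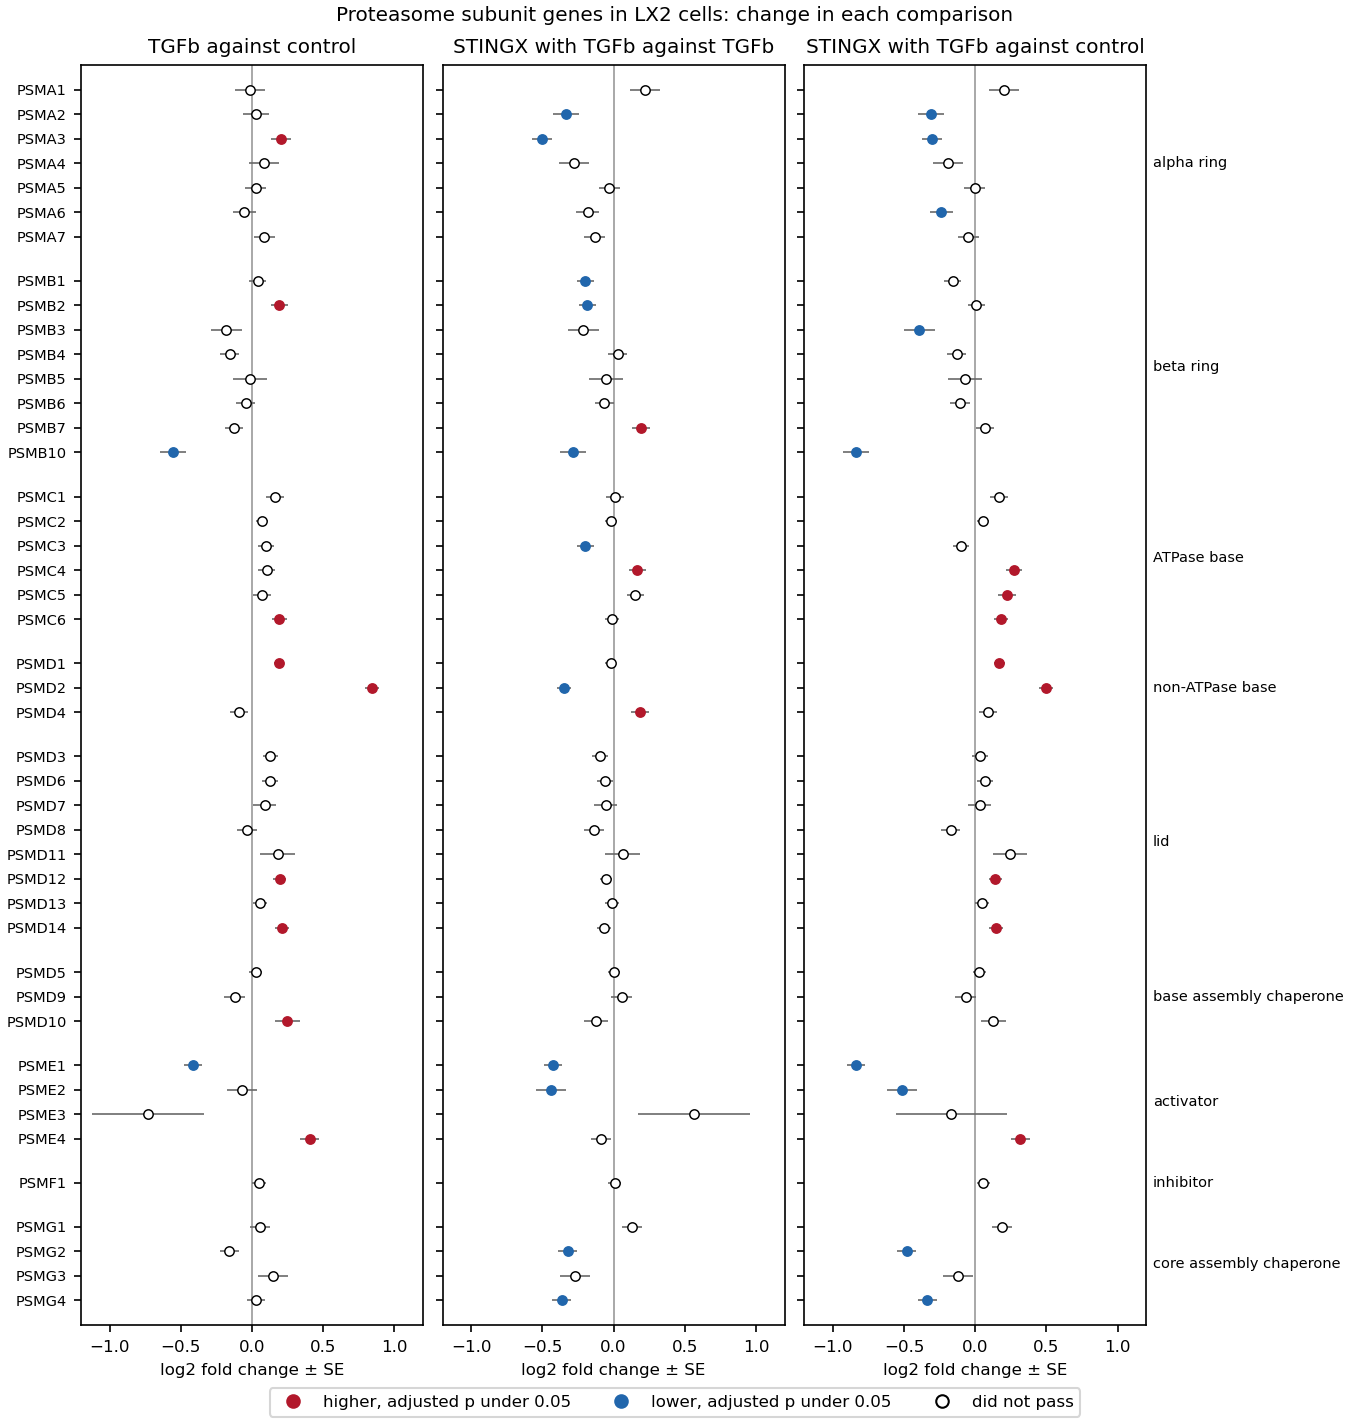
Log2 fold change ± SE of the 44 tested members in each comparison, grouped by role, with filled symbols for an adjusted p under 0.05. In TGFb against control PSMD2 stands farthest right, and PSMB10 and PSME1 are the filled symbols left of 0.

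**Figure D3:**
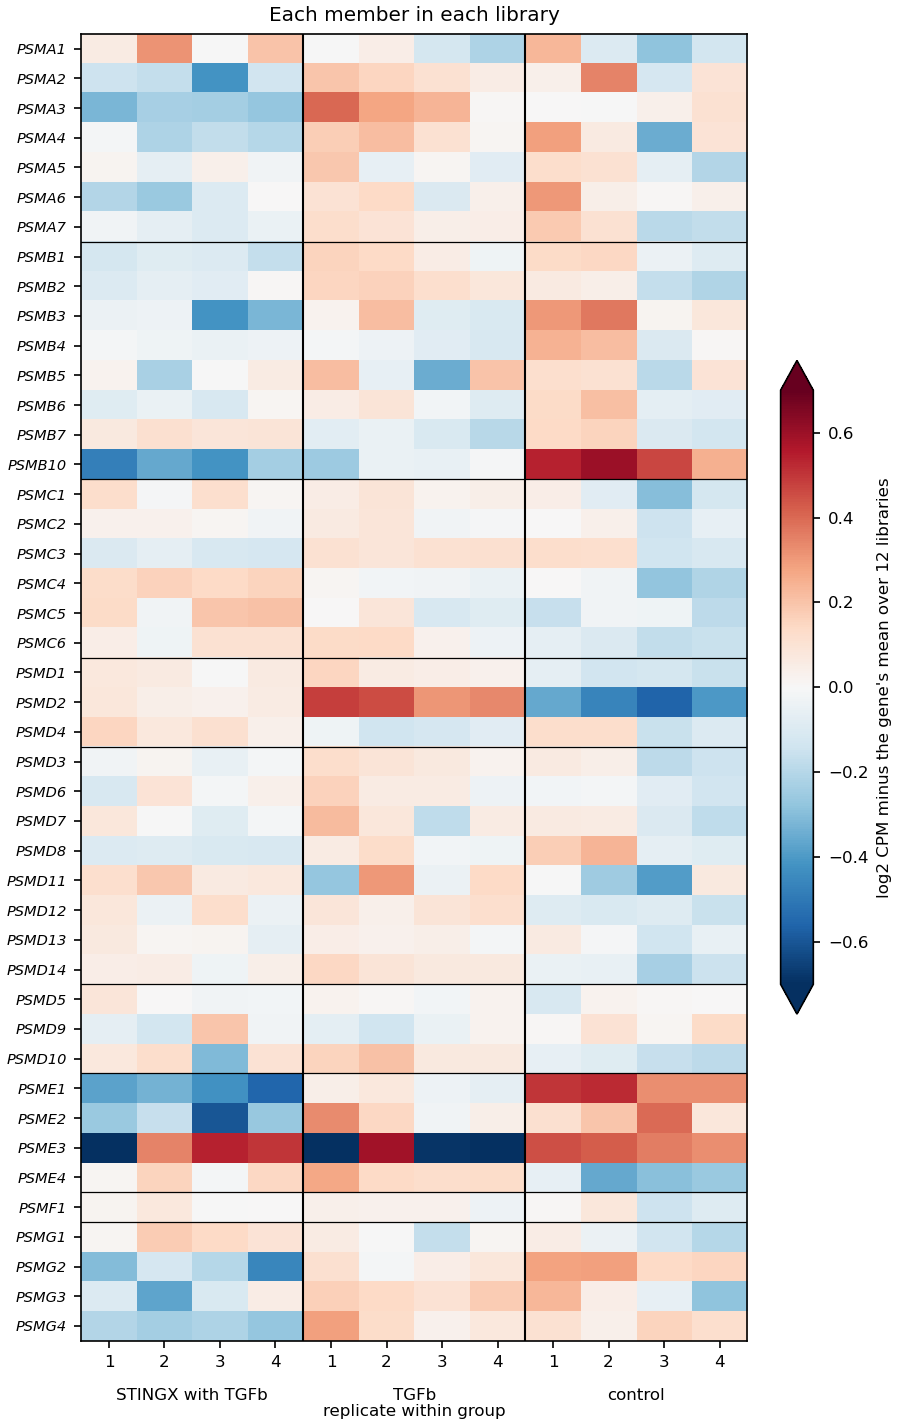
Each tested member in each of the 12 libraries, as log2 CPM minus the gene's mean, with STINGX-TGFb cells left, TGFb cells in the middle and control cells right. Control replicates 1 and 2 are redder than replicates 3 and 4 in most rows, and PSME3 splits within the treated groups.

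Calls were then set out by particle. Of the 17 regulatory particle genes (base and lid), 5 were higher and 0 lower in TGFb against control, and 7 were higher and 0 lower in STINGX with TGFb against control. Of the 15 core genes, 2 were higher and 1 lower in the first and 0 were higher and 5 lower in the second. In STINGX with TGFb against TGFb the calls were 2 higher and 2 lower in the regulatory particle and 1 higher and 5 lower in the core. Of all genes tested, 13.2% were higher and 12.8% lower in TGFb against control, 13.7% and 13.8% in STINGX with TGFb against TGFb, and 17.2% and 17% in STINGX with TGFb against control. Median log2 fold changes in these comparisons were 0.12, -0.02 and 0.14 for the regulatory particle and -0.01, -0.18 and -0.13 for the core. The regulatory median exceeded the core median under all 29 settings run, by 0.08 to 0.18, 0.11 to 0.16 and 0.18 to 0.33 in these comparisons. Every setting reuses these libraries, and a change of scaling moves both medians nearly alike, so the 29 settings are not separate evidence. In TGFb against control, leaving out control replicates 3 and 4 gave 2 higher and 2 lower in the regulatory particle. In the core it gave 0 higher and 4 lower. Leaving out control replicates 1 and 2 gave 9 higher and 0 lower in the regulatory particle and 2 higher and 1 lower in the core. Without control replicates 3 and 4 the calls in STINGX with TGFb against control were 2 higher and 2 lower in the regulatory particle and 0 higher and 11 lower in the core. Without control replicates 1 and 2 they were 8 higher and 0 lower in the regulatory particle and 4 higher and 2 lower in the core, and under library size alone 11 higher and 0 lower, and 2 higher and 3 lower. Two-sided counts here leave out subunits outside the name rule. SEM1, of the lid, was lower in STINGX-TGFb cells than in TGFb cells (-0.30, adjusted p = 0.0262 by edgeR) and control cells (-0.30, adjusted p = 0.0237). The second SEM1 call was lost without control replicates 1 and 2 (adjusted p = 0.279). ADRM1, of the base, was higher in both comparisons (0.29, adjusted p = 0.00292 and 0.27, adjusted p = 0.00462). The difference between the particles was not tested.

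In the base, PSMD2 (chr3:184299198-184309050 on GRCh38) had 731, 712, 708 and 722 CPM in STINGX-TGFb cells, 968, 951, 860.4 and 874 CPM in TGFb cells and 540.3, 504, 469 and 524 CPM in control cells. All TGFb libraries lay above all STINGX-TGFb libraries, which lay above all controls. The fold was 1.79 for TGFb against control, 0.786 for STINGX with TGFb against TGFb (-0.35, adjusted p = 1.74e-04 on the log2 scale) and 1.41 for STINGX with TGFb against control, and these calls held under every setting run. No other tested gene overlaps PSMD2. PSMD1, the other large scaffold, had 287, 285, 272 and 285 CPM in STINGX-TGFb cells, 302, 284, 281 and 278 CPM in TGFb cells and 261, 248, 250.2 and 245 CPM in control cells. Both treated groups lay above control, at 0.19 (SE 0.04, adjusted p = 0.00211) for TGFb against control and 0.17 (SE 0.04, adjusted p = 0.00357) for STINGX with TGFb against control, and they overlapped each other. The second call was lost without control replicates 3 and 4 (adjusted p = 0.0502). PSMD4, the ubiquitin receptor of the base, had 131, 124, 127 and 121 CPM in STINGX-TGFb cells, 115, 107, 109 and 111 CPM in TGFb cells and 128, 128, 106 and 109.9 CPM in control cells. Every STINGX-TGFb library exceeded every TGFb library (0.18, SE 0.06, adjusted p = 0.0493), a call lost without any 1 library of these 2 groups, and the controls spread over both.

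PSMD2 also differed between libraries in which transcript was given most of its counts. The authors' estimates put the 3449-base transcript ENST00000310118 at 95.2% to 97.0% of the gene in control replicates 1, 2 and 4 and at 41.9% in control replicate 3. The 2633-base transcript ENST00000439383 had 26191, 25199, 20623 and 24465 counts in STINGX-TGFb cells, 30812, 27475, 22190 and 22821 counts in TGFb cells and 2, 0, 16130 and 3 counts in control cells. Control replicate 3 thus had this transcript like the treated libraries, while its gene level, 469 CPM, was the lowest of the 12. The comparison above uses gene counts. In every library these add up to the same total as the transcript estimates, so they cannot be taken as independent of them. How reads were divided between the PSMD2 transcripts, and whether this affected the gene level, was not tested. In all, 26 of 44 members had 1 leading transcript in every library and 4 had 3 or more.

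**Figure D4:**
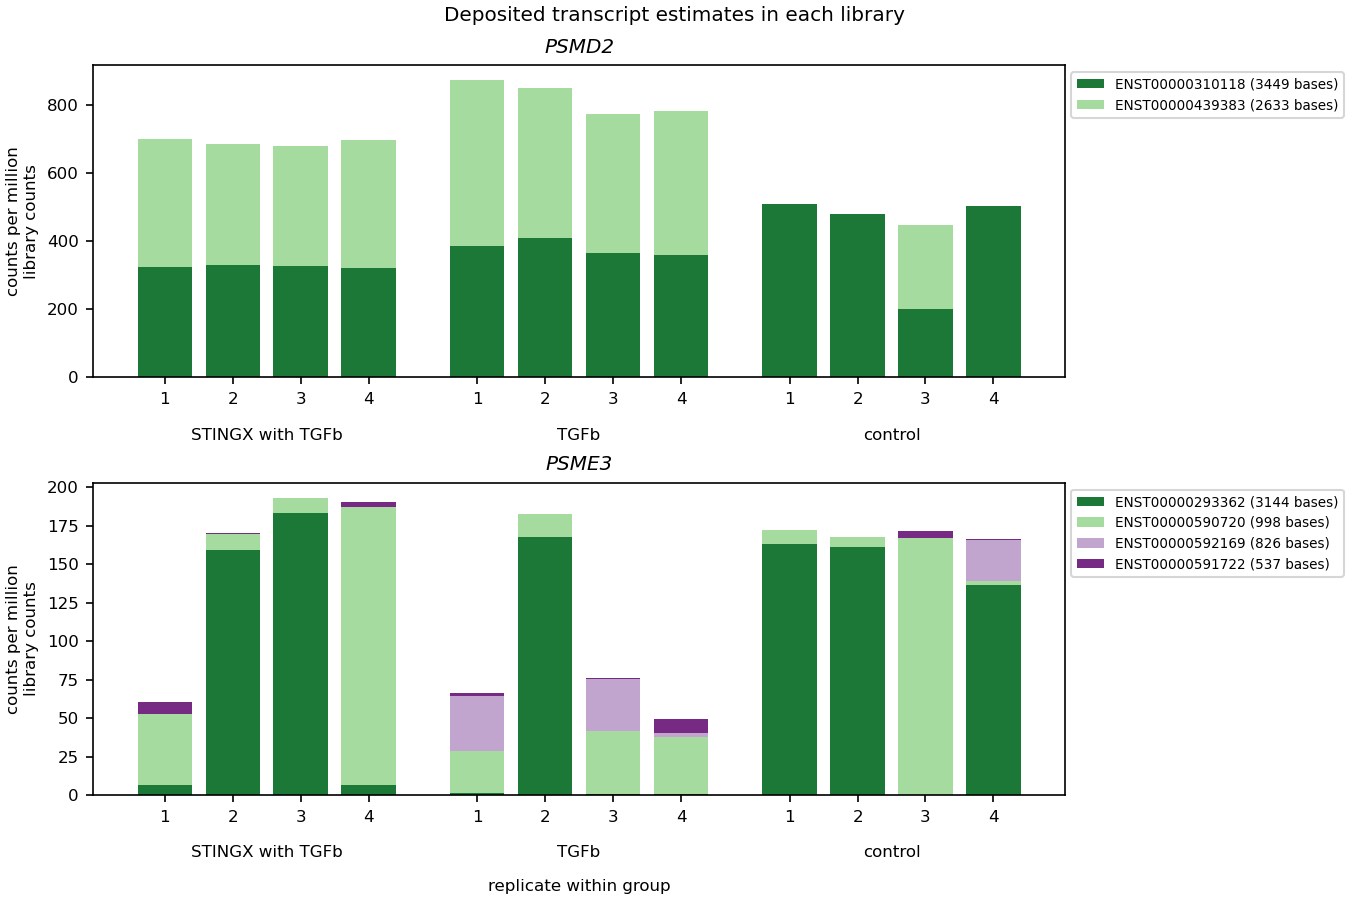
Estimated counts of the main transcripts of PSMD2 (top) and PSME3 (bottom) in each library, stacked, as CPM without further scaling. The second PSMD2 transcript appears in all 8 treated libraries and in control replicate 3, and PSME3 is low in the 4 libraries in which none of its transcripts is high.

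Among the ATPases that unfold substrates, PSMC4 was the one that differed in both STINGX comparisons. It had 136, 139, 137 and 139 CPM in STINGX-TGFb cells, 125, 122, 122 and 120.0 CPM in TGFb cells and 124, 122, 103 and 107 CPM in control cells. The STINGX-TGFb libraries lay above all others, at 0.17 (SE 0.06, adjusted p = 0.0464) against TGFb and 0.27 (SE 0.06, adjusted p = 0.00272) against control, and the first call was lost without any 1 library of either group. PSMC5 had 189, 169, 197 and 199 CPM in STINGX-TGFb cells, 173, 183, 159 and 163 CPM in TGFb cells and 154, 169.5, 169 and 152 CPM in control cells, and its STINGX-TGFb and control libraries overlapped narrowly (0.23, SE 0.06, adjusted p = 0.0146 for STINGX with TGFb against control), with the call lost without either pair of controls (adjusted p = 0.0553 without replicates 1 and 2, 0.0805 without replicates 3 and 4). PSMC6 was higher than control in both treated groups, by 0.19 (adjusted p = 0.0144) with TGFb and 0.18 (adjusted p = 0.0149) with STINGX and TGFb, and neither call held without control replicates 3 and 4 (adjusted p = 0.148 and 0.182). PSMC3, the ATPase of highest FPKM, had 140.0, 144, 139 and 139 CPM in STINGX-TGFb cells, 162, 159, 162 and 163 CPM in TGFb cells and 164, 163, 137 and 139 CPM in control cells. All of its STINGX-TGFb libraries were below all TGFb libraries (-0.20, SE 0.06, adjusted p = 0.0226), with control replicates 1 and 2 near the TGFb level and 3 and 4 near the STINGX-TGFb level. This call was lost without TGFb replicate 1 or 4 or STINGX-TGFb replicate 1, 3 or 4, at adjusted p up to 0.0579. PSMC1 and PSMC2 passed in no comparison, with log2 fold changes of 0.16 and 0.07 for TGFb against control. PSMC1 and PSMC2 also have annotated pseudogenes with counts, so reads could have been split between copies.

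The lid deubiquitinates substrates through PSMD14. PSMD14 had 88.0, 88.4, 83.6 and 87.8 CPM in STINGX-TGFb cells, 94.3, 90.9, 89.4 and 89.5 CPM in TGFb cells and 82.7, 82.3, 72.7 and 76.9 CPM in control cells. Control libraries were lower than those of both treated groups (0.21, SE 0.05, adjusted p = 0.00540 for TGFb against control, 0.14, SE 0.05, adjusted p = 0.0326 for STINGX with TGFb against control), and without control replicates 3 and 4 neither call held (adjusted p = 0.0601 and 0.400). PSMD12, a structural lid subunit with a tested pseudogene, was at 0.19 (adjusted p = 0.00655) and 0.14 (adjusted p = 0.0288), and lost both calls without those libraries (adjusted p = 0.0527 and 0.183). The lid gene of highest FPKM, PSMD8, had 168, 169, 167 and 166 CPM in STINGX-TGFb cells, 187, 197, 177 and 176 CPM in TGFb cells and 202, 211, 172 and 169 CPM in control cells, and did not pass in any comparison (-0.04, -0.14 and -0.17 in TGFb against control, STINGX with TGFb against TGFb, and STINGX with TGFb against control). PSMD3, PSMD6, PSMD7, PSMD11 and PSMD13 did not pass either, with log2 fold changes between -0.09 and 0.24. None of these 8 lid genes passed in STINGX with TGFb against TGFb, while SEM1, a lid gene outside the name rule, was lower.

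The alpha ring gates the core. PSMA3 had 56.8, 60.2, 60.0 and 58.7 CPM in STINGX-TGFb cells, 93.7, 85.7, 83.4 and 71.4 CPM in TGFb cells and 70.9, 70.8, 72.6 and 76.4 CPM in control cells. Its STINGX-TGFb libraries lay below every library of the other groups, at -0.50 (SE 0.07, adjusted p = 1.37e-04) against TGFb and -0.30 (SE 0.07, adjusted p = 0.00471) against control. Against control it was at 0.20 (adjusted p = 0.0497) in TGFb cells, a call lost in 10 of 12 cases with 1 library left out. PSMA2 was lower in STINGX-TGFb cells than in TGFb cells (-0.34, adjusted p = 0.0151) and control cells (-0.31, adjusted p = 0.0186), and PSMA6 than in control cells (-0.24, adjusted p = 0.0375). PSMA2 had 73.7, 72.6, 61.1 and 74.4 CPM in STINGX-TGFb cells, 93.3, 90.5, 87.7 and 84.6 CPM in TGFb cells and 83.5, 104, 75.2 and 87.2 CPM in control cells, with STINGX-TGFb replicate 3 the lowest and no overlap with either other group. Without control replicates 1 and 2 the calls against control were lost for PSMA2 and PSMA6 (adjusted p = 0.109 and 0.197). PSMA7, the alpha gene of highest level, had 363, 353, 345 and 357 CPM in STINGX-TGFb cells, 402, 394, 379.6 and 381 CPM in TGFb cells and 419, 397, 324 and 327 CPM in control cells. TGFb libraries exceeded STINGX-TGFb libraries throughout without passing (-0.13, adjusted p = 0.208), and the control pairs lay on either side. PSMA1, PSMA4 and PSMA5 passed in no comparison. PSMA3 shares its locus with PSMA3-AS1 on the opposite strand and with an unnamed gene on the same strand, and PSMA6 has counted pseudogenes, so their values carry that uncertainty.

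The constitutive cutting subunits changed little. PSMB5, the chymotrypsin-like site, had 80.9, 67.9, 79.4 and 82.8 CPM in STINGX-TGFb cells, 92.5, 76.5, 62.5 and 91.2 CPM in TGFb cells and 86.2, 85.6, 69.9 and 84.8 CPM in control cells. PSMB6, the caspase-like site, had 87.4, 89.6, 85.8 and 93.6 CPM in STINGX-TGFb cells, 95.8, 98.4, 91.3 and 87.0 CPM in TGFb cells and 102, 107, 88.3 and 87.4 CPM in control cells. The groups overlapped in both genes, with log2 fold changes of -0.02, -0.05 and -0.07 for PSMB5 and -0.04, -0.06 and -0.11 for PSMB6 in TGFb against control, STINGX with TGFb against TGFb, and STINGX with TGFb against control. PSMB7, the trypsin-like site, had 223, 230.1, 226 and 226 CPM in STINGX-TGFb cells, 202, 206, 198 and 186 CPM in TGFb cells and 234, 237, 198 and 194 CPM in control cells. STINGX-TGFb libraries lay above all TGFb libraries (0.19, SE 0.06, adjusted p = 0.0411), with control pairs on both sides, and the call was lost in 7 of 12 cases with 1 library left out (any STINGX-TGFb library, or TGFb replicate 1, 3 or 4), at adjusted p up to 0.114. Of the structural beta genes, PSMB1 (-0.20, adjusted p = 0.0250) and PSMB2 (-0.18, adjusted p = 0.0372) were lower in STINGX-TGFb than in TGFb cells, PSMB2 was higher in TGFb than in control cells (0.19, adjusted p = 0.0334), PSMB3 was lower in STINGX-TGFb than in control cells (-0.39, adjusted p = 0.0148), and PSMB4 passed nowhere. The PSMB1 call was lost without TGFb replicate 1 or 2 or STINGX-TGFb replicate 1 or 4, and the PSMB2 calls without 6 and 5 single libraries, at adjusted p up to 0.0762, 0.0946 and 0.0918. PSMB3 lost its call without control replicates 1 and 2 (adjusted p = 0.183).

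The inducible subunits were lowest with STINGX and highest in control. PSMB10 (chr16:67934506-67936850) had 11.7, 12.7, 12.2 and 13.8 CPM in STINGX-TGFb cells, 13.7, 15.8, 15.7 and 16.2 CPM in TGFb cells and 23.7, 24.7, 22.6 and 19.4 CPM in control cells. TGFb libraries were below every control library, STINGX-TGFb replicate 4 was above TGFb replicate 1 by a narrow margin and the other libraries of these groups did not cross, and log2 fold changes were -0.56 (SE 0.09, adjusted p = 5.46e-04) for TGFb against control, -0.28 (SE 0.09, adjusted p = 0.0389) for STINGX with TGFb against TGFb and -0.84 (SE 0.09, adjusted p = 1.33e-05) for STINGX with TGFb against control. The middle value lost its call without control replicate 3, TGFb replicate 2, 3 or 4, or STINGX-TGFb replicate 1, 2 or 3 (adjusted p up to 0.106), and was -0.14 (adjusted p = 0.262) under library size alone. The other 2 calls held under every setting run. PSMB8, which replaces PSMB5, had 37.5, 34.4, 37.1 and 40.5 CPM in STINGX-TGFb cells, 53.8, 47.8, 45.6 and 54.1 CPM in TGFb cells and 75.0, 78.4, 64.0 and 62.6 CPM in control cells, with log2 fold changes of -0.48 (adjusted p = 0.00128), -0.43 (adjusted p = 0.00270) and -0.91 (adjusted p = 5.09e-06) in the same order. PSMB9, which replaces PSMB6, had 27.8, 25.8, 26.9 and 27.1 CPM in STINGX-TGFb cells, 44.7, 43.7, 39.1 and 41.4 CPM in TGFb cells and 54.1, 58.0, 46.5 and 46.0 CPM in control cells, with -0.28 (adjusted p = 0.0189), -0.65 (adjusted p = 4.43e-05) and -0.93 (adjusted p = 1.54e-06). Of these, PSMB9 in TGFb against control was lost without control replicate 1 or 2 or TGFb replicate 3 (adjusted p up to 0.0590), and without control replicates 1 and 2. PSMB10 overlaps another tested gene on the same strand, so part of its counts could belong to that gene.

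The ratio of PSMB10 to PSMB7, its constitutive counterpart, was computed within each library from the deposited FPKM values, in which differences between groups but not the ratio itself can be read. It was 0.0574, 0.0606, 0.0591 and 0.0670 in STINGX-TGFb cells, 0.0743, 0.0840, 0.0872 and 0.0954 in TGFb cells and 0.111, 0.114, 0.125 and 0.109 in control cells. The 3 groups did not overlap. The ratio was 0.740-fold in TGFb against control, 0.717-fold in STINGX with TGFb against TGFb and 0.531-fold in STINGX with TGFb against control, each with p = 0.0286 by a two-sided exact permutation test, the smallest p that 4 against 4 allows, and 0.0286 after Benjamini-Hochberg adjustment over 3 comparisons. The ratios of PSMB8 to PSMB5 and of PSMB9 to PSMB6, for which no test was planned, were 0.735-fold and 0.852-fold, 0.764-fold and 0.666-fold, and 0.562-fold and 0.568-fold in these comparisons.

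**Figure D5:**
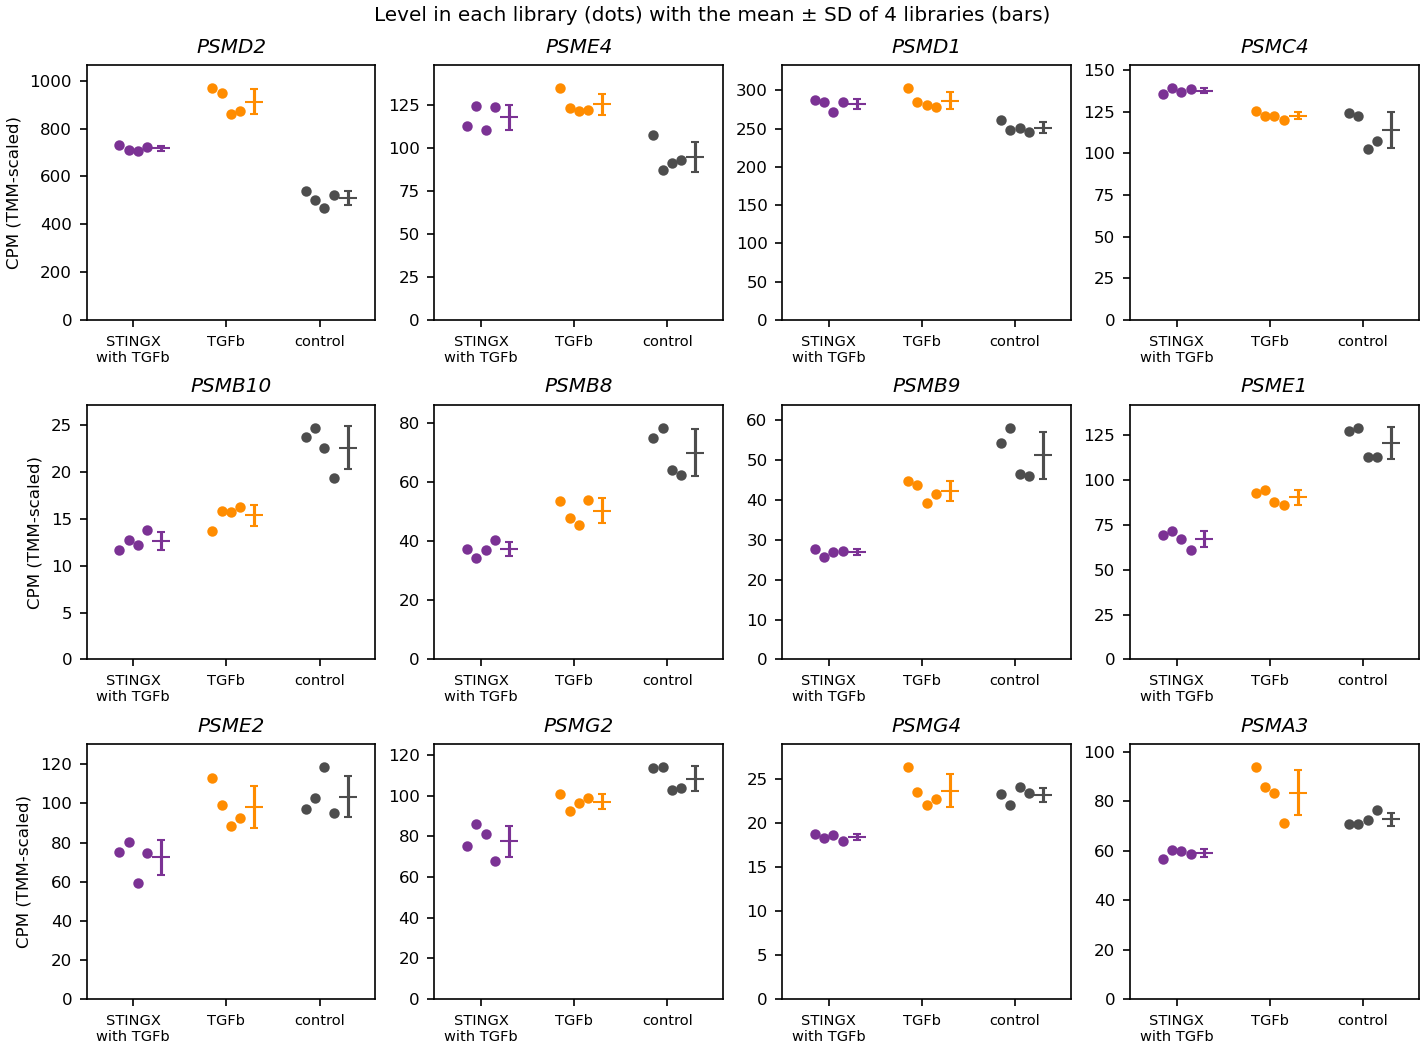
CPM of 12 genes in each library (dots) with the mean ± SD of each group, from 0, with STINGX-TGFb cells left, TGFb cells in the middle and control cells right. PSMD2, PSME4 and PSMD1 are lowest in control cells, and PSMB10, PSMB8, PSMB9 and PSME1 step up from left to right.

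The activators did not all change alike. PSME1 (chr14:24136163-24138967) and PSME2 (chr14:24143362-24147570) form the interferon-inducible ring PA28. PSME1 had 69.5, 71.6, 67.2 and 61.2 CPM in STINGX-TGFb cells, 92.8, 94.6, 87.8 and 86.2 CPM in TGFb cells and 127, 129, 113 and 113 CPM in control cells. The 3 groups did not overlap, and the log2 fold changes were -0.42 (SE 0.06, adjusted p = 3.32e-04), -0.42 (SE 0.06, adjusted p = 2.85e-04) and -0.84 (SE 0.06, adjusted p = 6.01e-07) in TGFb against control, STINGX with TGFb against TGFb, and STINGX with TGFb against control, each kept under every setting run. PSME2 had 75.0, 80.4, 59.2 and 74.8 CPM in STINGX-TGFb cells, 113, 99.4, 88.4 and 92.5 CPM in TGFb cells and 97.2, 103, 118 and 95.0 CPM in control cells. Only its STINGX-TGFb libraries stood apart, below all others (-0.44, SE 0.10, adjusted p = 0.00690 against TGFb, -0.51, SE 0.10, adjusted p = 0.00207 against control), while TGFb and control overlapped (-0.07, adjusted p = 0.677). On log2(FPKM + 1) without a filter the first PSME2 call was lost. PSME1 overlaps EMC9 and PSME2 overlaps RNF31 on the opposite strand, and PSME2 has a counted pseudogene. PSME4 had 113, 125, 111 and 124 CPM in STINGX-TGFb cells, 135, 123, 122 and 122 CPM in TGFb cells and 108, 87.2, 91.4 and 93.3 CPM in control cells. Controls lay below both treated groups (0.41, SE 0.07, adjusted p = 6.67e-04 and 0.32, SE 0.07, adjusted p = 0.00289), and STINGX with TGFb against TGFb gave -0.09 (adjusted p = 0.379).

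PSME3, the nuclear PA28 gamma, fell into high and low libraries within groups. It had 69.8, 169.5, 194 and 189 CPM in STINGX-TGFb cells, 73.7, 200.4, 82.7 and 63.9 CPM in TGFb cells and 182, 179, 170.5 and 167 CPM in control cells. STINGX-TGFb replicate 1 and TGFb replicates 1, 3 and 4 were low, and the other 8 libraries were high, so groups overlapped and no comparison passed (-0.73, SE 0.39, adjusted p = 0.217, 0.56, SE 0.39, adjusted p = 0.339 and -0.17, SE 0.39, adjusted p = 0.782 in the order above). Without TGFb replicate 2 the first became -1.25 (adjusted p = 0.0147) and the second 1.08 (adjusted p = 0.0271). The 3144-base transcript ENST00000293362 had 474, 11270, 10671 and 428 counts in STINGX-TGFb cells, 72, 10433, 34 and 34 counts in TGFb cells and 10450, 10534, 0 and 9113 counts in control cells. STINGX-TGFb replicate 4 and control replicate 3 had little or none of it and were high through the 998-base transcript ENST00000590720, with 11713 and 10889 counts. How the authors' software divided reads among these transcripts was not tested. PSME3 overlaps BECN1 on the opposite strand.

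PSMF1, which encodes the inhibitor PI31, was among the steadiest members. It had 196, 204, 193 and 194 CPM in STINGX-TGFb cells, 199, 198, 198 and 189 CPM in TGFb cells and 195, 205, 175 and 182 CPM in control cells. The groups overlapped and the log2 fold changes were 0.05, 0.01 and 0.06 in TGFb against control, STINGX with TGFb against TGFb, and STINGX with TGFb against control.

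Of the chaperones that build the core, PSMG2 and PSMG4 fell with STINGX. PSMG2, which pairs with PSMG1 to template the alpha ring, had 75.4, 85.8, 81.1 and 68.0 CPM in STINGX-TGFb cells, 101, 92.3, 96.3 and 98.7 CPM in TGFb cells and 113, 114, 103 and 104 CPM in control cells. STINGX-TGFb libraries were below all others, at -0.32 (SE 0.07, adjusted p = 0.00351) against TGFb and -0.48 (SE 0.07, adjusted p = 1.39e-04) against control. PSMG4, which pairs with PSMG3, had 18.7, 18.3, 18.6 and 17.9 CPM in STINGX-TGFb cells, 26.3, 23.5, 22.0 and 22.7 CPM in TGFb cells and 23.3, 22.1, 24.0 and 23.4 CPM in control cells. Its STINGX-TGFb libraries also lay below all others, at -0.36 (SE 0.06, adjusted p = 0.00101) and -0.34 (SE 0.06, adjusted p = 0.00139), and TGFb and control overlapped. On log2(FPKM + 1) without a filter both lost their calls against TGFb. Their partners did not pass: PSMG1 gave 0.13 (adjusted p = 0.203) and PSMG3 gave -0.27 (adjusted p = 0.0805) in STINGX with TGFb against TGFb. PSMG2 and PSMG4 each overlap other tested genes on the opposite strand. Among the base chaperones, PSMD10, also called gankyrin, had 49.9, 51.6, 38.3 and 50.8 CPM in STINGX-TGFb cells, 53.0, 54.8, 49.8 and 49.9 CPM in TGFb cells and 45.6, 44.8, 42.5 and 41.8 CPM in control cells. TGFb libraries were above all control libraries (0.25, SE 0.09, adjusted p = 0.0497), STINGX-TGFb replicate 3 was the lowest of the 12, and the call was lost without any 1 library but that one. PSMD5 and PSMD9 passed in no comparison.

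A list of 34 other genes of the pathway, all tested, holds further subunits, shuttle factors, regulators and ubiquitin genes. In TGFb against control 13 were higher and 4 lower, in STINGX with TGFb against TGFb 7 were higher and 6 lower, and in STINGX with TGFb against control 12 were higher and 2 lower, with medians of 0.11, 0.02 and 0.10 on the log2 scale. Over all genes 26%, 27.5% and 34.2% were called, and 35.8%, 37.8% and 47.8% over those that averaged at least 10 CPM. DDI2, the protease that cuts NFE2L1 into its active form, rose most with TGFb (0.89, SE 0.05, adjusted p = 2.13e-08), fell with STINGX (-0.20, adjusted p = 0.00654) and was above control with both (0.69, adjusted p = 2.09e-07). MAFG, a binding partner of NFE2L1, was at 0.80 (adjusted p = 0.00196), -0.08 (adjusted p = 0.752) and 0.72 (adjusted p = 0.00289) in the same order. NFE2L1 itself was at 0.51 (adjusted p = 0.0505), -0.53 (adjusted p = 0.0419) and -0.02 (adjusted p = 0.948), and its call was lost without control replicate 1, any TGFb library or STINGX-TGFb replicate 2 or 4 (adjusted p up to 0.106). POMP, the chaperone of beta ring maturation, was higher in TGFb than control cells (0.30, adjusted p = 0.00231) and lower in STINGX-TGFb than TGFb cells (-0.24, adjusted p = 0.00861). ADRM1, a ubiquitin receptor of the base, was higher in STINGX-TGFb cells than in TGFb cells (0.29, adjusted p = 0.00292) and control cells (0.27, adjusted p = 0.00462). ECPAS, an adaptor of the 26S proteasome, rose in each comparison, by 0.14, 0.27 and 0.41, of which the first was lost without any 1 library but control replicate 4 or TGFb replicate 2 (adjusted p up to 0.136). NGLY1, the enzyme that removes sugars from NFE2L1, was lower with TGFb (-0.24, adjusted p = 0.0101) and higher with STINGX than with TGFb alone (0.37, adjusted p = 4.21e-04). UBB, a polyubiquitin gene, was lower than control in TGFb cells (-0.35, adjusted p = 0.0120) and STINGX-TGFb cells (-0.43, adjusted p = 0.00240), and ZFAND2A, a heat-inducible proteasome adaptor, was higher in STINGX-TGFb cells than in both (0.53, adjusted p = 0.0311 and 0.55, adjusted p = 0.0191). The first ZFAND2A call was lost without TGFb replicate 2 or 4 or STINGX-TGFb replicate 1 or 4 and the second without control replicate 1 or STINGX-TGFb replicate 4 (adjusted p up to 0.0930 and 0.0617). Under library size alone the calls of ECPAS in TGFb against control and of POMP, DDI2 and NFE2L1 in STINGX with TGFb against TGFb were lost. Without control replicates 1 and 2 so were those of NGLY1 and UBB in TGFb against control, NFE2L1 in STINGX with TGFb against TGFb and ZFAND2A in STINGX with TGFb against control. The same ZFAND2A call and that of ECPAS in TGFb against control were lost without either pair of controls.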

How the data were processed

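Polyadenylated RNA of 12 LX2 libraries was sequenced. The deposited tables hold estimated counts per gene and per transcript, as whole numbers, and FPKM per gene in which a count of 0 is listed at 0.0001. The submitters' processing notes name cutadapt, HISAT2, StringTie and edgeR, without versions, and GRCh38. Neither the annotation release nor the use of strand is given in the sources used here, and the promoter search left out chromosome 8. Members and lists were chosen with earlier results of these data known.

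Estimated counts as deposited were tested in edgeR 4.0.16 (R 4.3.3) by a quasi-likelihood fit over 3 groups with TMM scaling, after filterByExpr (minimum count 10, minimum total 15) kept 21328 genes, with Benjamini-Hochberg adjustment over all of them and a threshold of 0.05. The fit was also run on simulated counts, drawn independently for each library and so without the control pairs seen here. No result given here rests on that run. Standard errors are of the log2 fold change. TPM was computed from the deposited transcript counts and GENCODE release 29 lengths (98.3% of counts), because deposited FPKM over TPM had a median of 0.429 in genes with 1 transcript and 0.126 in genes with 20 or more. FPKM was used only for the ratio within a library, for choosing the gene of highest FPKM in each role, and as an alternative unit. Replicate pairs differed beyond counting error (chi-square per degree of freedom 40.4 to 87.2), so all were kept as separate samples.

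Values in every library were given for PSMB5, PSMB6, PSMB7, PSMB10, PSME1 and PSME2, for the 4 largest rises and falls past the threshold in each comparison, and for the gene of highest FPKM in each role. Pathway genes were named by their largest changes, with NFE2L1, POMP and ADRM1 always given. Alternatives were other scalings, filters and sets of genes or samples, other tools (DESeq2 1.42.0, limma 3.58.1 with voom or on log2(FPKM + 1) and log2(FPKM + 0.1)), a replicate block and leaving out each library. Leaving out a pair of controls was added after the data had been examined, as were the interferon motifs.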

Additional observations from a re-analysis of the deposited data

Results flagged for a closer look

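In 10 of the 132 sets of 4 libraries (44 members in 3 groups; 7.58%), 1 library lay far from the other 3 by Dixon's criterion at its 95% critical value, and chance alone gives about 1 in 20. STINGX-TGFb replicate 3 accounted for 4 of them, each time as the lowest library: PSMA2 at 61.1 CPM against 72.6 to 74.4 CPM in the other 3, PSMD1 at 272 CPM against 285 to 287 CPM, PSMD14 at 83.6 CPM against 87.8 to 88.4 CPM, and PSMD10 at 38.3 CPM against 49.9 to 51.6 CPM. TGFb libraries stood apart in PSME3, where replicate 2 had 200.4 CPM against 63.9 to 82.7 CPM, in PSME4, where replicate 1 had 135 CPM against 122 to 123 CPM, and in PSMF1, where replicate 4 had 189 CPM against 198 to 199 CPM. Control libraries stood apart in PSMA6, where replicate 1 had 105 CPM against 85.2 to 87.3 CPM, in PSMB5, where replicate 3 had 69.9 CPM against 84.8 to 86.2 CPM, and in PSMD5, where replicate 1 had 58.2 CPM against 63.0 to 63.8 CPM. Calls turn on 4 of these values. Without TGFb replicate 2 PSME3 passed in both comparisons with TGFb cells, as given with its results. Against control, the STINGX-TGFb call of PSMA2 was lost without STINGX-TGFb replicate 3 and that of PSMA6 without control replicate 1, at -0.25 and -0.16 (adjusted p = 0.0557 and 0.110 by edgeR), and PSMD10 passed without STINGX-TGFb replicate 3 (0.22, adjusted p = 0.0115).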

How the results depend on the processing

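Of the calls, 5 of 11 in TGFb against control, 3 of 14 in STINGX with TGFb against TGFb and 8 of 17 in STINGX with TGFb against control held in all 29 settings. In TGFb against control, 7 members were called on log2(FPKM + 1) without a filter. There, under library size alone, on log2(FPKM + 1) and on log2(FPKM + 0.1) 4 were higher, and without control replicates 3 and 4, 3 were. The lower count was 4 under upper quartile scaling, 5 under library size alone and on log2(FPKM + 1) and log2(FPKM + 0.1), and 8 without control replicates 3 and 4. In STINGX with TGFb against TGFb, leaving out 1 library gave 7 to 15 called, 0 to 3 higher and 7 to 12 lower. The higher count was 1 under upper quartile scaling and with no filter, 0 with DESeq2 and its size factors, 13 under library size alone, 12 on log2(FPKM + 1) and log2(FPKM + 0.1) and 9 without a filter on FPKM. The lower count was 6 under library size alone and on both FPKM scales, and 3 without a filter. In STINGX with TGFb against control, the higher count was 5 under upper quartile scaling, 16 under library size alone and log2(FPKM + 0.1), 15 on log2(FPKM + 1) and without control replicates 1 and 2, and 3 without control replicates 3 and 4. The lower count was 5 on log2(FPKM + 1) without a filter and 17 without control replicates 3 and 4.

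In STINGX with TGFb against TGFb, 5 genes changed sign while called under the reported or the other setting, in at most 4 settings each (library size alone, log2(FPKM + 1), log2(FPKM + 0.1) and log2(FPKM + 1) without a filter): PSMC2 was 0.12 in all 4, PSMD1 0.12, 0.11, 0.12 and 0.11, UBA1 0.023, 0.020, 0.021 and 0.020, PSMD13 0.13, 0.11 and 0.12 in the first 3, and PSMC6 0.13 in the first. In STINGX with TGFb against control PSMA7 was 0.12 without control replicates 1 and 2 and PSMB2 -0.13 without control replicates 3 and 4. The causes were not tested.

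The log2 ratio of PSMB10 to PSMB7 ranged from -0.49 to -0.37 in TGFb against control, -0.54 to -0.42 in STINGX with TGFb against TGFb and -0.96 to -0.87 in STINGX with TGFb against control with 1 library left out, where the smallest p possible is 0.0571.

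Replicate numbers did not pair the samples (correlation of same-numbered deviations -0.0383 to 0.0452), so the replicate block is an alternative only. With it 11, 14 and 18 members were called in TGFb against control, STINGX with TGFb against TGFb, and STINGX with TGFb against control. PSMA3 (0.20), PSMB10 (-0.28) and PSMA6 (-0.23) lost their calls in the first, the second and the third of these, and PSMB3 gained 1 in each of the first 2, at -0.18 and -0.22. At these library totals the low counts of PSMA8 and PSMB11 allowed no test, and the smallest change called among members was 0.14 on the log2 scale.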

Other observations

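The 10 letters GAAAGCGAAA, shared by the promoters of PSMB10, PSME2 and PSMG4, were looked for on either strand in the promoter windows of all genes after the values of these members had been seen. They stood in the windows of 27 genes, of which 22 were tested. For STINGX with TGFb against TGFb 1 of the 22 was higher and 10 were lower by edgeR at an adjusted p under 0.05, with a median log2 fold change of -0.24, against 0.01 over all genes, of which 13.7% were higher and 13.8% lower. Among the 19 that are no proteasome members 1 was higher and 7 were lower, with a median of -0.13. PARP14, an ADP-ribosyltransferase, was at -1.27 (adjusted p = 3.22e-08), TAP1 and TAP2, the peptide transporter that feeds antigen presentation, were at -0.54 (adjusted p = 0.00369) and -0.32 (adjusted p = 6.12e-05), and TNFRSF1B, a TNF receptor, was higher, at 1.12 (adjusted p = 5.08e-09). Of those that did not pass, ALOXE3, EARS2, FAM111A-DT, RNF31, SENP1 and UBFD1 had positive values, and ARAP1, GRWD1, MYD88, SHFL and TRHDE negative ones. In TGFb against control 7 of the 22 were higher and 3 lower, with PARP14 at 0.48, TAP1 at 0.41 and TAP2 at 0.32, PSMB10 at -0.56 and TNFRSF1B at -2.64 (adjusted p = 1.83e-12), against 13.2% higher and 12.8% lower over all genes. Without the members it was 7 higher and 2 lower of 19. For STINGX with TGFb against control 2 were higher and 10 lower, with a median of -0.13, against 17.2% and 17% over all genes. Without the members, whose fall led to this search, it was 2 higher and 7 lower of 19, with a median of -0.10. TNFRSF1B was at -1.52 and PARP14 at -0.79 there, and TAP1 and TAP2 did not pass (-0.13 and -0.005, adjusted p = 0.422 and 0.943 by edgeR). The genes of this list are not independent, since TAP1, TAP2 and PSMB8-AS1 are neighbours in the genome and RNF31 overlaps PSME2, and no test was made over the list.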
